A study of Mus musculus with 24 samples.

Results

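Extracellular vesicles (EVs) are membrane particles that cells release into blood, and they carry microRNAs (miRNAs), short RNAs that repress mRNAs. Here the miRNAs of serum EVs were compared between mice sampled 24 h (S24h) and 72 h (S72h) after surgery, with 6 mice and 6 libraries per group. A mature miRNA entered the comparison when it had at least 10 CPM (its count per 1000000 counts of that library) in 6 or more of these 12 libraries. Of the 1966 mature miRNAs in the deposited table, 538 had a count in the 12 libraries and 238 met this rule, and these 238 held 99.6% of the counts. The rule used only the level and not the difference between the groups.

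All mice were wild type C57BL/6 animals aged 14 to 16 weeks. They were male, as the methods of the study state. Both groups underwent the same tibia surgery, an open fracture stabilized with a pin, under isoflurane and buprenorphine. Both also received analgesia daily until blood was drawn from the heart under pentobarbital. Mice that had surgery were assigned to a time point at random, and each mouse was sampled once, so the comparison is between different animals and not within them. Control mice received saline without surgery, and mice sampled 6 h after surgery (S6h) are given for reference. The Control mice analysed here were those matched to the S6h group, and the control set matched to the later groups was not analysed here. The serum fraction was precipitated with a polymer kit and column-purified, so vesicles of all cells that release them into blood were pooled in each library, and more vesicles of a cell type cannot be told apart from more miRNA per vesicle. The paper adds that such precipitation might also bring down some miRNAs bound to lipoproteins, so part of the counts may not come from vesicles.

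A mature miRNA binds mRNAs mainly through its seed, bases 2 to 8, so miRNAs with one seed share most predicted targets. Several miRNAs are produced mainly by one tissue and are read in blood as its trace. Examples are miR-122-5p of hepatocytes, miR-1a-3p and miR-133a-3p of striated muscle, and miR-451a of red blood cells. Neighbouring miRNA hairpins are often cut from one primary transcript.

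The S24h libraries held 66652 to 143856 counts (median 75030) and the S72h libraries 65017 to 245013 (median 94427.5). The log2 totals did not differ beyond the spread between mice (exact two-sided permutation test over 924 assignments, p = 0.526, n = 6 per group). In 7 of the 12 libraries a single read amounted to 10 CPM or more, and 50 of the 238 miRNAs had a median count under 5. No miRNA met the rule with 6 mice of one group and none of the other, and 218 of the 238 reached 10 CPM in at least 3 mice of each group. Some met it mainly through the S72h group. miR-224-5p did so with 5 S72h libraries and 1 S24h library, and miR-29c-3p had a count in all 6 S72h mice but 0 in 4 S24h mice. At its edge, 15 miRNAs met it in exactly 6 libraries and 28 missed it with 5. CPM values below are scaled by edgeR's TMM factors. These lay at 0.61 in S72h mouse 4 and 0.74 in S72h mouse 1, below those of the other 10 libraries.

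No miRNA was called between S72h and S24h at an adjusted p (FDR) under 0.05 and a fold change (FC) of at least 1.5, so 0% of the 238 were called (edgeR's quasi-likelihood test, Benjamini-Hochberg adjustment). The smallest adjusted p was 0.171. DESeq2 and limma-voom also called 0. Without the CPM filter 9 of 538 miRNAs were called, all higher at 72 h. Of these, 6 were among the 238, namely miR-194-5p, miR-215-5p, miR-101a-3p, miR-122-5p, miR-1a-3p and miR-133a-3p. For miR-122-5p the log2FC (S72h over S24h) was 2.04 with the filter and 1.97 without. Its unadjusted p was 0.0516 and 1.85e-09 (edgeR), and the cause was not tested. With the filter, leaving out S72h mouse 4 gave -1.35 for miR-122-5p and 0.50 for miR-194-5p. Leaving out S72h mouse 1 gave -0.15 for miR-1a-3p and 0.23 for miR-133a-3p. With any single mouse left out, miR-215-5p stayed at 1.81 or more and miR-101a-3p at 0.86 or more. With the filter and all mice, 21 miRNAs had an unadjusted p under 0.05, 8.82% of those tested. Of these, 19 had a higher level at 72 h (7.98%) and 2 a lower one (0.84%). DESeq2 gave 24 such miRNAs and limma-voom 22. The balance of directions depended on the scaling, since it was 12 higher and 8 lower with RLE size factors, 10 and 9 with column totals, and 14 and 10 with DESeq2. The median log2FC (S72h over S24h) of all 238 was 0.09 with TMM and -0.14 with column totals. None of the 238 had values that separated the groups without overlap (0%).

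**Figure D1:**
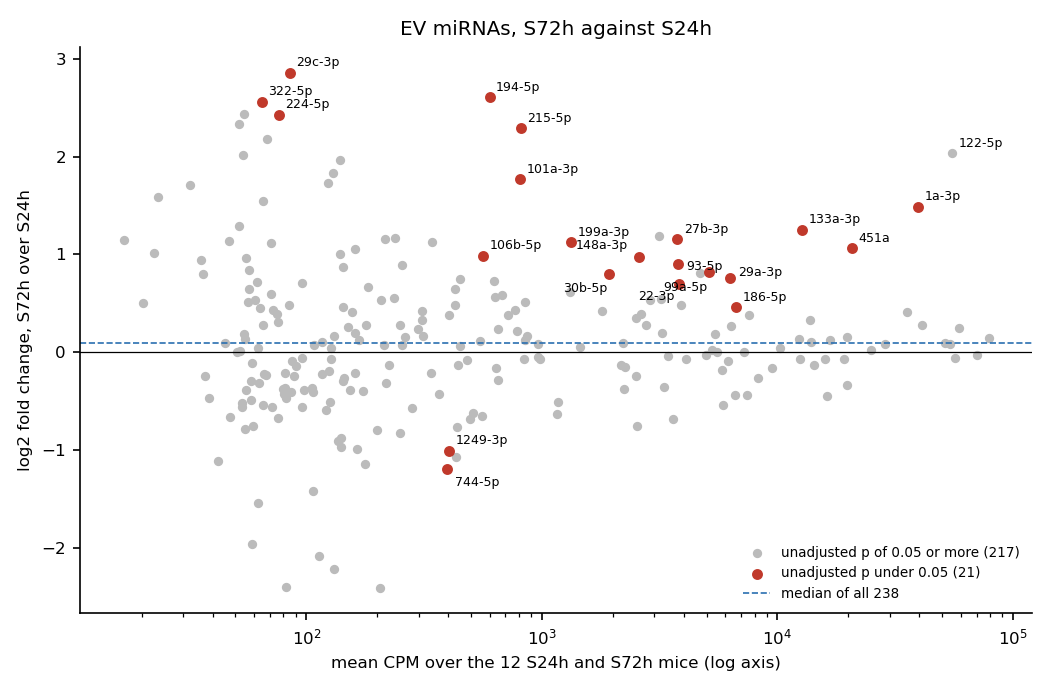
Each point is 1 of the 238 miRNAs, with its mean CPM over the 12 mice on a log axis and its log2FC (S72h over S24h) on the vertical axis. The 21 miRNAs at an unadjusted p under 0.05 are red and named without the miR prefix, 19 above 0 and 2 below, and the scatter around 0 widens towards low CPM.

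The precision behind this count differed with the level. The median standard error (SE) of the log2FC was 0.74 over all 238, 0.31 over the 73 miRNAs that averaged at least 1000 CPM, and 1.28 over the 71 with a mean under 100 CPM. The 95% interval of the fold change lay within a 2-fold change either way for 42 miRNAs, 37 of which had at least 1000 CPM, and within 1.5-fold for 4. For the other 196 the interval reached beyond a 2-fold difference in at least one direction. Estimates of 2-fold or more were made for 45 miRNAs, and only 7 of these had a mean of at least 1000 CPM.

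Sequences are shown for the 10 miRNAs with the smallest p among those higher at 72 h, none of which was called. The other tested miRNAs of the same seed are added, because members of a seed group did not all have the same estimate. Mature sequences were taken from RefSeq (build GRCm38.p6), which matched 202 of the 238, and the seed is in capitals.
miR-27b-3p: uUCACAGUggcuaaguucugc
miR-27a-3p: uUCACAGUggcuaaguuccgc
miR-194-5p: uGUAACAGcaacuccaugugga
miR-215-5p: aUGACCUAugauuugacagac
miR-192-5p: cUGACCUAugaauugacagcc
miR-101a-3p: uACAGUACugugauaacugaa
miR-29a-3p: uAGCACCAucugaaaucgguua
miR-29b-3p: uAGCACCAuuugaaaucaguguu
miR-29c-3p: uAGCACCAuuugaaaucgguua
miR-93-5p: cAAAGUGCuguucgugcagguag
miR-106b-5p: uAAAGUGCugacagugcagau
miR-17-5p: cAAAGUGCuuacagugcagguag
miR-20a-5p: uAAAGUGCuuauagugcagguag
miR-199a-3p: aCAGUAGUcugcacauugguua
miR-199b-3p: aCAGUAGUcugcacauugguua
miR-451a: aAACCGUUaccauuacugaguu

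The smallest p belonged to miR-27b-3p, which is known for repressing genes of fat cell formation and lipid metabolism. It is encoded at chr13:63300760-63300780 on the plus strand, within an exon of a transcript of 2010111I01Rik. In the 6 S24h mice it had 1668 to 3026 CPM (median 2226), and in the 6 S72h mice 1401 to 8945 CPM (median 5578). Of the S72h mice 4 lay above every S24h mouse and 1 lay below every one, so the groups overlapped and the S72h group was the wider. The log2FC was 1.15 (SE 0.31, 95% interval 0.53 to 1.78), with an adjusted p of 0.171 (edgeR). In the reference groups its median was 7808 CPM in Control mice and 10024 CPM in S6h mice. It stayed at an unadjusted p under 0.05 with each mouse left out, and without S72h mouse 5, the lowest of the group, the adjusted p was 0.00621 with a log2FC of 1.35. Without S72h mouse 6 the log2FC was 0.84 and the adjusted p = 0.673 (edgeR). miR-27a-3p, of the same seed and encoded in another cluster at chr8:84208727-84208747, had medians of 3408 CPM at 24 h and 3788 CPM at 72 h (log2FC 0.49, SE 0.26, adjusted p = 0.516, edgeR).

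Among the 4 smallest p values were also those of miR-194-5p and miR-215-5p, which with miR-192-5p are abundant in the epithelium of gut and kidney and in liver. Their hairpins lie in pairs. Mir194-1 and Mir215 lie together within 2010103J01Rik at chr1:185313319-185313692, the latter inside an exon, and Mir194-2 and Mir192 lie together at chr19:6264643-6264932 outside any annotated host gene of that strand. Reads of miR-194-5p cannot be assigned to one of its 2 hairpins. miR-215-5p and miR-192-5p share a seed.

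miR-215-5p had 0 to 880 CPM at 24 h (median 200) and 107 to 2786 CPM at 72 h (median 1428). It was at 0 in 2 S24h mice and present in all 6 S72h mice, 4 of which lay above every S24h mouse. The log2FC was 2.29 (SE 0.72, adjusted p = 0.176, edgeR). It was at an unadjusted p under 0.05 with each mouse left out, and without S24h mouse 2, the highest of its group, the adjusted p was 0.0387 with a log2FC of 3.08. Without S72h mouse 6 the log2FC was 1.81 and the adjusted p = 0.804 (edgeR).

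miR-194-5p had 11.7 to 272 CPM at 24 h (median 156) and 105 to 5023 CPM at 72 h (median 227). The highest value was that of S72h mouse 4, and the next S72h mouse had 472 CPM. The log2FC of 2.61 (SE 0.78, adjusted p = 0.176, edgeR) became 0.50 without that mouse. miR-192-5p ranged from 517 to 6559 CPM (median 1137) and from 370 to 10804 CPM (median 4162), and its log2FC was 1.19 (SE 0.61, adjusted p = 0.488, edgeR). Its highest S24h value was that of mouse 2, and its highest S72h value that of mouse 4. The log2FC was 2.15 without S24h mouse 2 and 0.69 without S72h mouse 4.

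miR-101a-3p, which is known to repress the histone methyltransferase Ezh2, is encoded at chr4:101346957-101346977 on the minus strand within an exon of E130102H24Rik. It had 176 to 719 CPM at 24 h (median 317) and 377 to 4191 CPM at 72 h (median 774). All 6 S72h mice lay above the S24h median, but only 3 lay above every S24h mouse. The log2FC was 1.77 (SE 0.55, adjusted p = 0.176, edgeR), and 0.86 without S72h mouse 4 (adjusted p = 0.659).

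The miR-29 family represses mRNAs of collagens and other matrix proteins. miR-29a-3p (chr6:31062673-31062694, minus strand, outside any annotated host gene of that strand) had 3735 to 5815 CPM at 24 h (median 4582) and 5513 to 12547 CPM at 72 h (median 6875). Of the 6 S72h mice 5 lay above every S24h mouse, and the ranges overlapped only between 5513 and 5815 CPM. The log2FC was 0.76 (SE 0.24, 95% interval 0.27 to 1.26, adjusted p = 0.176, edgeR), and it ranged from 0.51 to 0.84 with 1 mouse left out. Control mice had a median of 10899 CPM and S6h mice of 12751 CPM, above the medians of both later groups.

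miR-29c-3p (chr1:195037600-195037621, within an exon of A330023F24Rik) was at 0 in 4 of the 6 S24h mice, with up to 82.1 CPM in the others, and had 29.7 to 405 CPM in the S72h mice (median 95.7). Its log2FC was 2.86 (SE 0.93, adjusted p = 0.176, edgeR). Without S24h mouse 2 it was called together with miR-215-5p, at a log2FC of 4.23, and without S72h mouse 6 the log2FC was 2.13 (adjusted p = 0.804, edgeR). Its counts were low, since the lowest S72h library held 2 reads. miR-29b-3p, of the same seed and from the same 2 clusters, had medians of 25.2 and 28.6 CPM (log2FC -0.75, SE 1.16, adjusted p = 0.977, edgeR), so the 3 seed mates did not have estimates of one sign. A list of 4 tested miR-29 arms had a median log2FC of 1.15 (0.93 to 1.77 with 1 mouse left out, the highest without S24h mouse 4), beside 0.09 over all 238, with 2 members at an unadjusted p under 0.05.

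**Figure D2:**
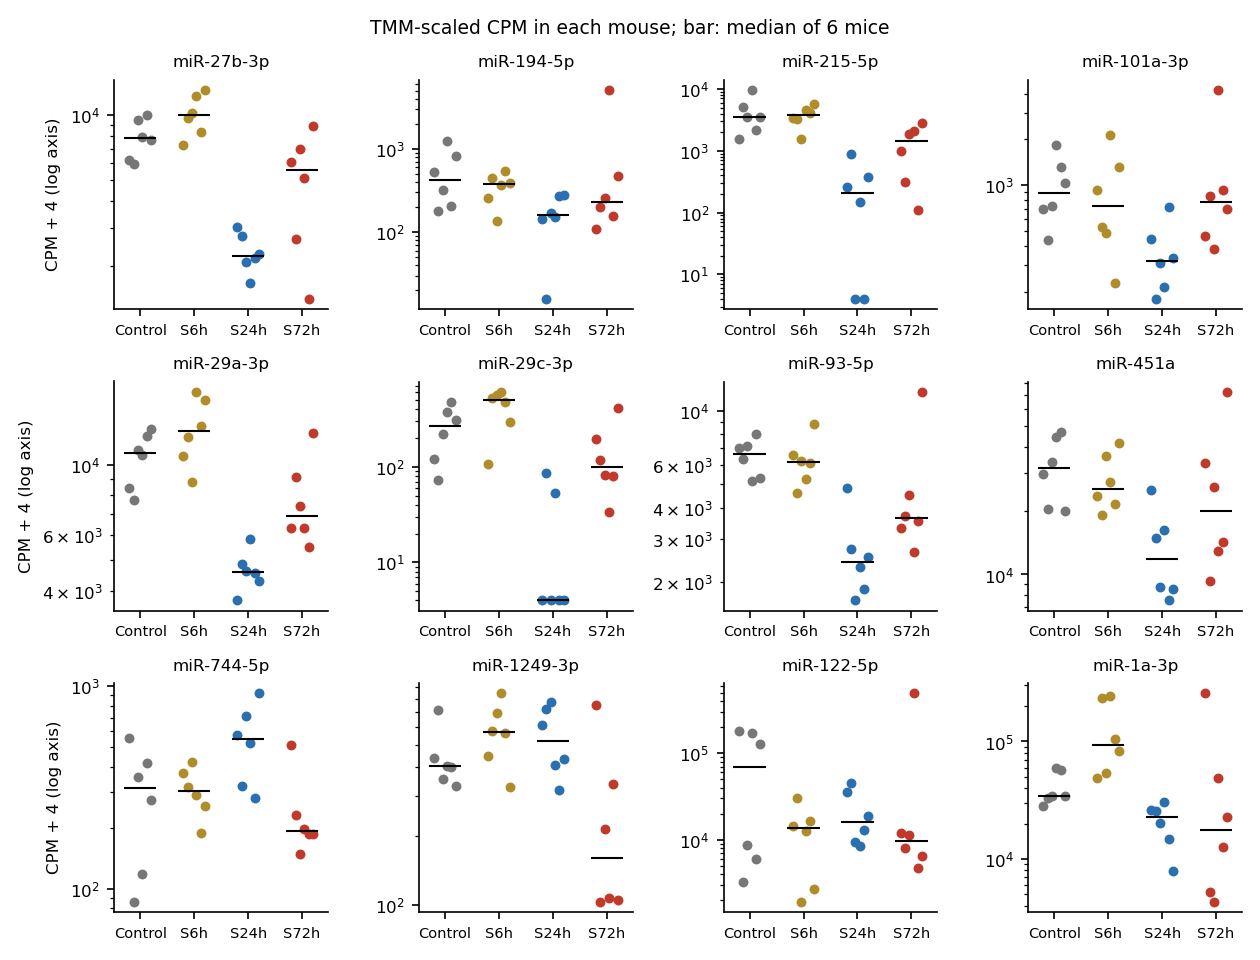
TMM-scaled CPM plus 4 on a log axis in every mouse of the Control, S6h, S24h and S72h groups for 12 miRNAs, with the median of each group as a bar. The S24h mice lie in a narrow band for miR-27b-3p and miR-29a-3p, while a single S72h mouse stands above the rest for miR-194-5p, miR-101a-3p, miR-122-5p and miR-1a-3p.

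miR-93-5p and miR-106b-5p are encoded with miR-25 within Mcm7 (chr5:138165321-138165818, minus strand), a gene of DNA replication licensing, and are known for repressing inhibitors of the cell cycle. miR-93-5p had 1671 to 4811 CPM at 24 h (median 2406) and 2631 to 11913 CPM at 72 h (median 3629). All 6 S72h mice lay above the S24h median and 1, mouse 6, above every S24h mouse. The log2FC of 0.90 (SE 0.31, adjusted p = 0.236, edgeR) became 0.37 (adjusted p = 0.972) without mouse 6. miR-106b-5p had medians of 320 and 741 CPM (log2FC 0.99, SE 0.40, adjusted p = 0.468, edgeR). Over the 6 tested arms of this cluster the median log2FC was 0.69, and 5 of the 6 estimates were above 0. miR-17-5p and miR-20a-5p, with the same seed but encoded in the Mir17 cluster (chr14:115043671-115044506), had log2FC of -0.39 (SE 0.78) and -0.32 (SE 0.92). The 7 tested arms of that cluster had a median log2FC of -0.13.

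miR-451a, which is cut from its hairpin by Ago2 in red blood cells, had 7534 to 24931 CPM at 24 h (median 11774) and 9352 to 72596 CPM at 72 h (median 19934). S72h mice 1, 3 and 6 lay above every S24h mouse. The log2FC was 1.06 (SE 0.40, adjusted p = 0.342, edgeR), and it was 0.44 (adjusted p = 0.972) without S72h mouse 6, in which miR-451a took 8.04% of the library. It is encoded at chr11:78073186-78073207 beside Mir144, and the 2 arms of that hairpin had estimates of opposite sign, with a log2FC of 0.53 (SE 0.53) for miR-144-3p and -0.51 (SE 0.48) for the more abundant miR-144-5p. The log2 ratio of miR-451a to miR-23a-3p counts, an index of red blood cell miRNA in serum, had a mean of -1.27 ± 0.57 at 24 h and -0.73 ± 0.60 at 72 h (SD over 6 mice each, n = 6, by the two-sided exact permutation test p = 0.143), a difference of 0.54. The difference was 0.73 without S24h mouse 1 (exact p = 0.0173) and 0.30 without S72h mouse 6 (exact p = 0.294). The part of red blood cell content in the differences above was not tested.

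miR-199a-3p is a miRNA of mesenchymal cells and platelets, and one of its hairpins lies in Dnm3os. It had 475 to 1549 CPM at 24 h (median 582) and 242 to 3187 CPM at 72 h (median 2128). Of the S72h mice 4 lay above and 1 below every S24h mouse. The log2FC was 1.13 (SE 0.43, adjusted p = 0.342, edgeR). miR-199b-3p has the identical mature sequence, and its counts (medians 158 and 336 CPM, log2FC 0.90) and those of miR-199a-3p can only come from one shared pool of reads, so their split is uncertain.

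The other miRNAs higher at 72 h at an unadjusted p under 0.05 (edgeR) were miR-224-5p (log2FC 2.43), miR-322-5p (2.56), miR-1a-3p (1.49), miR-133a-3p (1.25), miR-148a-3p (0.97), miR-99a-5p (0.82), miR-30b-5p (0.80), miR-22-3p (0.70) and miR-186-5p (0.46). miR-224-5p was at 0 in 5 of 6 S24h mice and in 1 of 6 S72h mice, and miR-322-5p at 0 in 3 and in 1, so both rest on few reads. Without S24h mouse 6 miR-224-5p was called (adjusted p = 0.013, edgeR), but all remaining S24h mice were then at 0 and it reached 10 CPM in only 5 libraries, fewer than the rule asks. With S72h mouse 6 left out, the log2FC was 0.61 for miR-106b-5p, 0.47 for miR-30b-5p, 0.36 for miR-22-3p and 1.53 for miR-224-5p, and with S72h mouse 4 left out it was 0.59 for miR-148a-3p. miR-186-5p had the smallest ratio of highest to lowest S72h value of these, with 7211 to 8816 CPM (median 7432), against 4367 to 7435 CPM at 24 h (median 5223), and all 6 S72h mice lay above the S24h median.

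The 2 miRNAs lower at 72 h at an unadjusted p under 0.05 were miR-744-5p and miR-1249-3p. miR-744-5p had 278 to 916 CPM at 24 h (median 544) and 144 to 507 CPM at 72 h (median 188). All 6 S72h mice lay below the S24h median, and 5 of them below every S24h mouse. The log2FC was -1.19 (SE 0.49, adjusted p = 0.468, edgeR). It stayed below 0 at an unadjusted p under 0.05 with each mouse left out, and Control and S6h mice had medians of 311 and 299 CPM.

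miR-1249-3p had 316 to 770 CPM at 24 h (median 519) and 99.5 to 744 CPM at 72 h (median 157), with 4 S72h mice below every S24h mouse. Its log2FC was -1.0 (SE 0.46, adjusted p = 0.488, edgeR), and -1.67 without S72h mouse 1, the highest of its group.

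The next estimates below 0, none at an unadjusted p under 0.05, included the pair miR-10a-5p and miR-10b-5p, encoded in the Hox clusters. miR-10a-5p had medians of 6531 CPM at 24 h and 5072 CPM at 72 h (log2FC -0.54, SE 0.27, adjusted p = 0.488, edgeR). miR-10b-5p had medians of 4348 and 2304 CPM (log2FC -0.68, SE 0.34, adjusted p = 0.488, edgeR). Lower still were miR-23a-5p (log2FC -2.41), miR-3074-5p (-2.40) and miR-664-5p (-2.22). Their standard errors were 1.16 to 1.27, they had counts of 0 in both groups, and their intervals included 0. miR-150-5p, a miRNA of mature lymphocytes, had medians of 2835 and 1552 CPM (log2FC -0.75, SE 0.40, adjusted p = 0.492, edgeR). miR-205-5p of stratified epithelia (-0.63) and miR-320-3p (-0.45) completed the 10 smallest p values in this direction. The former was -0.25 without S24h mouse 2 and the latter -0.24 without S24h mouse 3.

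Among the tissue-restricted miRNAs, the positive estimates of miR-122-5p of liver and miR-1a-3p of muscle each rested on a single mouse. miR-122-5p had 8520 to 45163 CPM at 24 h (median 15866) and 4706 to 491606 CPM at 72 h (median 9731). Its S72h median was below that of the S24h group, and the highest value came from S72h mouse 4, where this miRNA took 29.8% of all counts, while it took 0.475% to 1.32% in the other S72h mice and 0.789% to 5.22% in the S24h mice. The log2FC was 2.04 (SE 1.01, adjusted p = 0.488, edgeR) with all mice and -1.35 (adjusted p = 0.659) without mouse 4, and with limma-voom it was -0.20 with all mice. miR-194-5p, miR-101a-3p, miR-155-5p, miR-365-3p and miR-30a-5p were also more than 2-fold above the next highest of the 12 libraries in that mouse.

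miR-1a-3p had 7885 to 30484 CPM at 24 h (median 22768) and 4294 to 256586 CPM at 72 h (median 17693). S72h mouse 1, with 19.0% of its counts in this miRNA, lay above the other S72h mice, and 2 S72h mice lay below every S24h mouse. The log2FC of 1.49 (SE 0.66, adjusted p = 0.488, edgeR) became -0.15 (adjusted p = 0.99) without mouse 1. miR-133a-3p followed, with 4.70% of the counts of the same mouse and a range of 1606 to 63552 CPM (median 7635) against 3647 to 13737 CPM at 24 h (median 5974). Its log2FC of 1.25 became 0.23 (adjusted p = 0.99, edgeR) without that mouse. miR-206-3p, which is restricted to skeletal muscle, had medians of 457 and 226 CPM (log2FC -1.07, SE 0.75). Of the 6 muscle miRNAs tested, 3 had a log2FC above 0 and 3 below, with a median of 0.59 and 2 at an unadjusted p under 0.05. The median was -0.64 without S72h mouse 1.

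**Figure D3:**
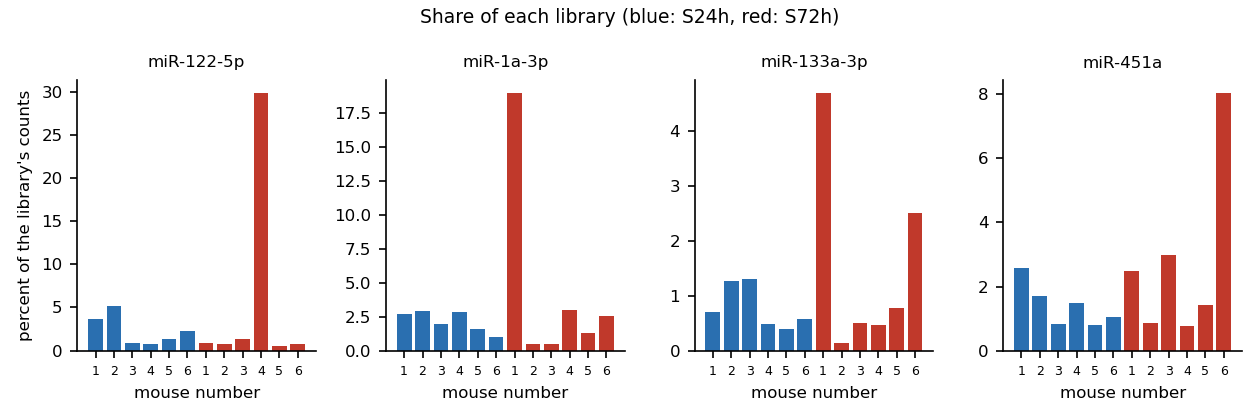
Percent of each library's counts in miR-122-5p, miR-1a-3p, miR-133a-3p and miR-451a, with 1 bar per mouse, S24h in blue and S72h in red, and axes from 0. S72h mouse 4 reaches 29.8% for miR-122-5p, mouse 1 reaches 19.0% for miR-1a-3p and mouse 6 reaches 8.04% for miR-451a.

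Of the 10 most abundant miRNAs, miR-122-5p and miR-1a-3p are given above, and the log2FC of the other 8 lay between -0.06 and 0.41. miR-21a-5p, which is induced in injured and inflamed tissue, had 56130 to 101494 CPM at 24 h (median 70812) and 28747 to 131454 CPM at 72 h (median 85663), with a log2FC of 0.14 (SE 0.35, 95% interval -0.56 to 0.85). The sign of this value turned with limma-voom (-0.033) and with column totals (-0.046). let-7a-5p, of the family that represses Lin28 and Ras mRNAs, had medians of 71787 and 69134 CPM (log2FC -0.03, 95% interval -0.78 to 0.72). let-7f-5p, let-7c-5p and let-7b-5p had log2FC of -0.06, 0.08 and 0.10, the last 2 below 0 with RLE, DESeq2 and column totals. miR-191-5p had 40939 to 77030 CPM (median 50938) and 51555 to 78753 CPM (median 63866), with a log2FC of 0.25 (SE 0.28, and 0.14 to 0.37 with 1 mouse left out, the highest without S24h mouse 3). miR-486b-5p, of red blood cells and muscle, had medians of 34505 and 37835 CPM (log2FC 0.28), and miR-23a-3p of 31094 and 38687 CPM (log2FC 0.41, SE 0.32, and 0.17 without S72h mouse 1). For these 8 the intervals all included 0.

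The 10 most abundant miRNAs held 49.3 ± 2.82% of the counts at 24 h and 51.8 ± 9.58% at 72 h (SD over 6 mice each, n = 6, by the two-sided exact permutation test p = 0.584), and the difference was -0.52 percentage points without S72h mouse 4. The spread among S72h mice was larger, from 38.2% to 67.0%, against 45.2% to 53.1% among S24h mice. Over the 73 miRNAs with at least 1000 CPM, the median SD of log2 CPM was 0.43 for S24h mice and 0.61 for S72h mice, with 50 of the 73 more variable among the latter. Over all 238 it was 1.31 and 1.12, so the order of the groups was opposite where low counts were included.

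More miRNAs were seen in the S72h libraries. With every library thinned to 65017 counts, 236 ± 10.9 miRNAs had at least 1 count at 24 h and 271 ± 28.1 at 72 h (SD, n = 6). The S24h mice ranged from 217 to 251 and the S72h mice from 234 to 311, so the ranges overlapped (exact two-sided permutation test, p = 0.0238, and 0.0952 after adjustment over the 4 library-wide comparisons). With at least 3 counts required, the difference was 9.05 miRNAs (exact permutation test, p = 0.232). Most of the difference thus lay in miRNAs with 1 or 2 counts at that depth.

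Groups of miRNAs were described by their members' log2FC beside that of all 238, of which 19 were higher and 2 lower at an unadjusted p under 0.05 with a median of 0.09. The 3 miRNAs of kidney and gut had a median of 2.29, which was 0.69 without S72h mouse 4. Mesenchymal and smooth muscle miRNAs (7 tested, 1 higher) had a median of 0.90, with log2FC of 0.81 for miR-143-3p (SE 0.47) and of -0.44 for miR-145a-5p (SE 0.29, and -0.23 without S24h mouse 3), which are cut from one transcript in smooth muscle. The miR-23, miR-27 and miR-24 clusters (9 tested, 1 higher) had 0.49, and the miR-17 to miR-92a and paralogous clusters (13 tested, 2 higher) 0.48. Without S72h mouse 6 the medians of these 2 lists were 0.22 and 0.098.

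The blood cell lists had medians between -0.15 and 0.39. The red blood cell list (12 tested, 1 higher) had a median log2FC of 0.36, or 0.12 to 0.53 with 1 mouse left out (lowest without S72h mouse 6), with summed CPM of 45683 to 152891 at 24 h and 73136 to 186671 at 72 h. The platelet list (13 tested, 1 higher) had 0.39, or 0.18 without S72h mouse 2, with summed CPM of 126086 to 189220 and 143337 to 237695. The leukocyte list (9 tested, none at an unadjusted p under 0.05) had -0.15, and 0.04 without S72h mouse 1. Its member miR-223-3p, of neutrophils and platelets, had medians of 2045 and 2991 CPM (log2FC 0.39, SE 0.30, and 0.19 without S24h mouse 6). miR-146a-5p, induced by NF-kB as a brake on inflammatory signalling, had medians of 2388 and 1764 CPM (log2FC -0.37, SE 0.33). With 1 mouse left out its log2FC ranged from -0.75 (without S72h mouse 6) to -0.21. The 5 inflammation-responsive miRNAs tested had a median of 0.14, which was -0.03 with limma-voom and -0.04 with column totals.

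The medians of the remaining lists lay between -0.06 and 0.30, and each of them moved by more than 1.5 times or changed sign with 1 of the mice left out. The let-7 family (11 tested, none at an unadjusted p under 0.05) had 0.08, the miR-30 family (8 tested, 1 higher, miR-30b-5p) 0.06, and the miR-26, miR-181 and miR-378 list (8 tested, none) 0.04, and all 3 were below 0 with RLE, DESeq2 and column totals, as was the list of miR-99, miR-100 and miR-125 (8 tested, 1 higher, miR-99a-5p), at 0.07. The endothelial list (5 tested, none) had -0.03 and the 7 tested miRNAs of the imprinted Dlk1-Dio3 cluster -0.06, which was 0.38 with limma-voom. The miR-15 and miR-16 family (8 tested, 1 higher, miR-322-5p) had 0.30 and its most abundant member, miR-16-5p, 0.19 (SE 0.29). With 1 mouse left out, miR-16-5p ranged from 0.054 to 0.39 (the highest without S24h mouse 1). Epithelial miRNAs (6 tested, none) had 0.28, which was 0.79 with limma-voom and 0.028 with column totals. The miRNAs often used as references (11 tested, 1 higher, miR-186-5p) had 0.27. Of 29 arms listed as brain-enriched, 2 were tested. miR-128-3p had medians of 12174 and 12826 CPM (log2FC 0.14, and -0.022 with column totals, with RLE and DESeq2 also just below 0), and the neuronal miR-124-3p had 0 counts in all 12 mice.

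**Figure D4:**
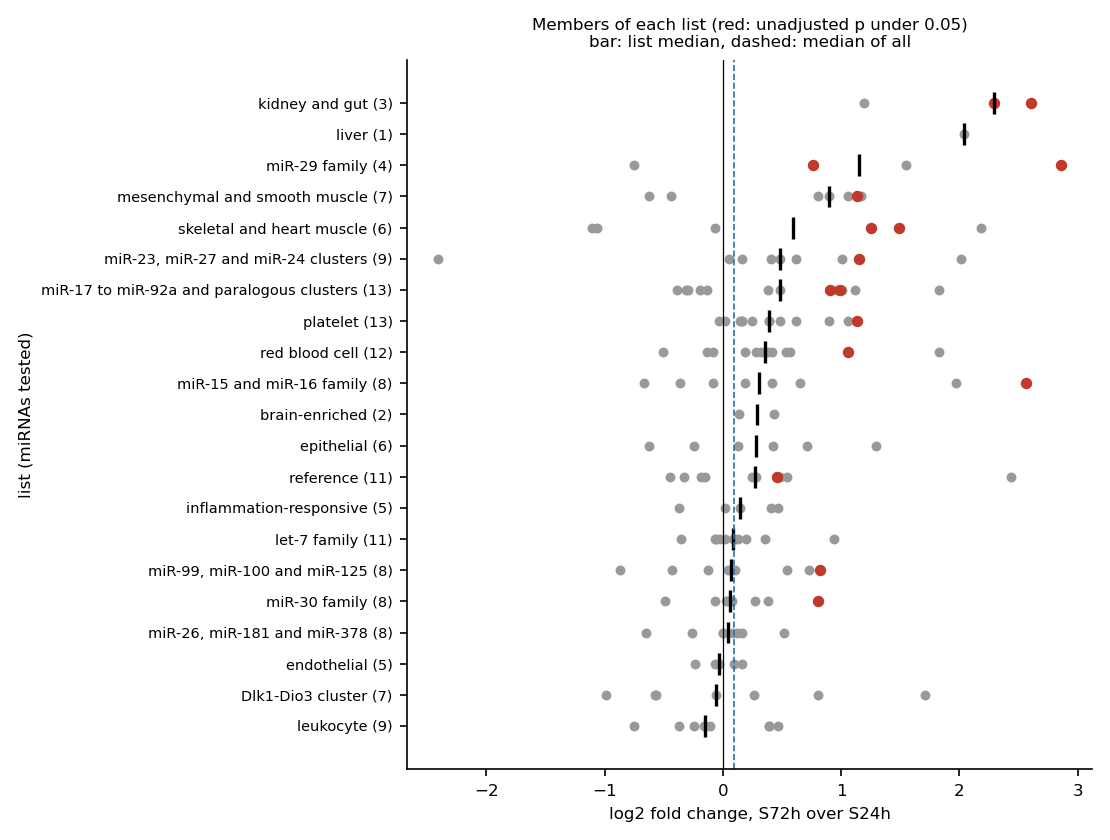
log2FC (S72h over S24h) of every tested member of 21 lists of tissue, blood cell and family miRNAs, with the number tested in parentheses, the list median as a black bar and the median of all 238 as a dashed line. Members at an unadjusted p under 0.05 are red, and most lists have members on both sides of 0.

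Hairpins within 10000 bp on one strand were taken as clusters, which gave 29 clusters with 83 tested miRNAs, of which 11 were at an unadjusted p under 0.05, beside 21 of all 238 (8.82%) and 7 of the 119 that were placed outside a cluster. The 36 miRNAs that RefSeq did not match, such as miR-23b-3p and miR-143-3p, were not placed, so clusters that hold them are incomplete or missing. Beside the clusters named above, Mir27b and Mir24-1 (chr13:63300712-63301275) had a median log2FC of 1.01 over the 3 arms that were placed, and the 6 arms of the Mir450, Mir542, Mir503 and Mir322 cluster of the X chromosome 0.89. The arms of Mir206 and Mir133b, a muscle pair, had -1.09. Whether the hairpins of a cluster share a transcript was not tested, and the members of a cluster were not counted as independent.

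The 2 arms of a hairpin were compared within each library, where scaling between libraries plays no part. Of 48 hairpins with both arms tested, 0 had an adjusted p under 0.05 and 2 an unadjusted one (exact two-sided permutation test, n = 6 per group, smallest adjusted p = 0.364). For miR-335, encoded within the imprinted gene Mest, the log2 ratio of 5p to 3p counts had a median of 0 at 24 h and 1.01 at 72 h (difference of means 2.93, exact p = 0.0108). For miR-145a it had medians of 6.46 and 4.19 (difference of means -1.72, exact p = 0.0152). For miR-335 both arms had low counts, with mean levels of 124 CPM for miR-335-5p and 82.4 CPM for miR-335-3p. Its S24h ratios ran from -2.32 to 0, and with 0.5 added the ratio is also 0 where neither arm has a count. The median of 0 thus does not show a balance of the arms. For miR-145a the 3p arm was low, with a mean level of 238 CPM.

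**Figure D5:**
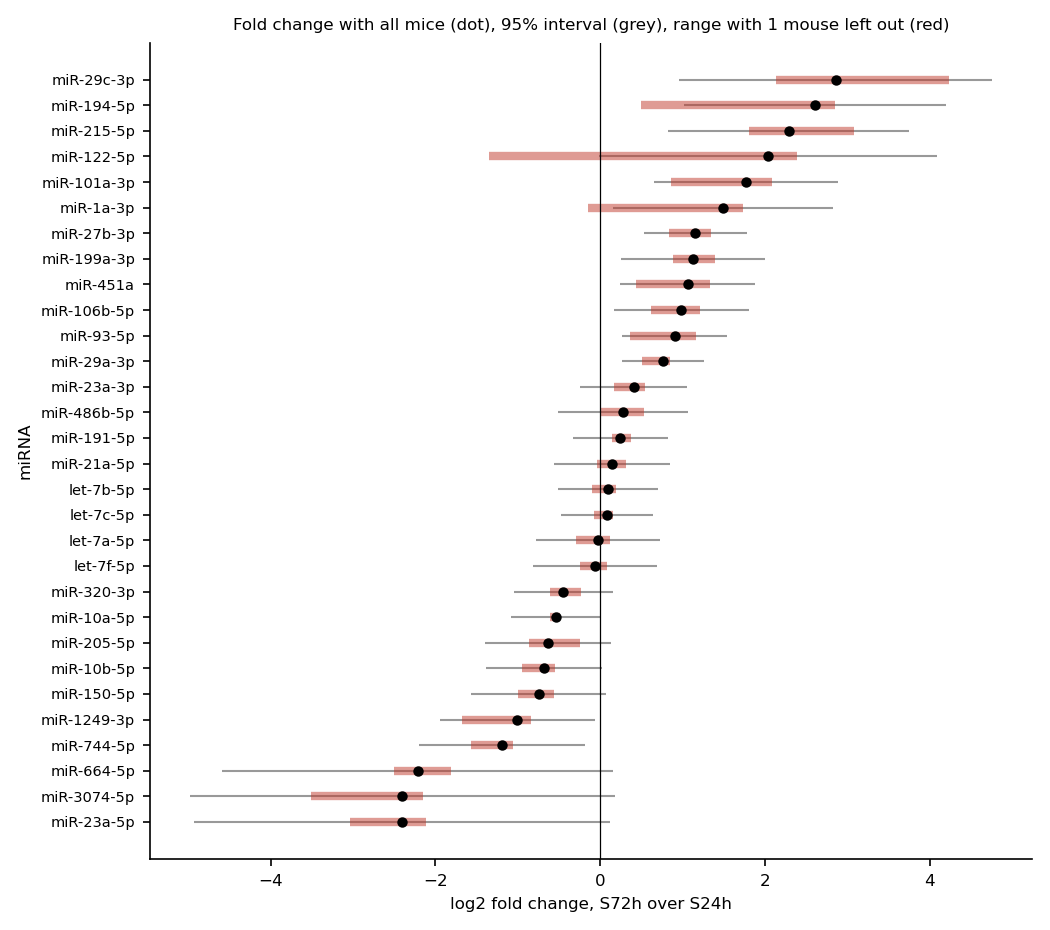
log2FC (S72h over S24h) with all mice (dot), its 95% interval (grey line) and the range of estimates with 1 of the 12 mice left out (red bar) for 30 miRNAs, the 10 with the smallest p in each direction and the 10 most abundant. The red bars of miR-122-5p and miR-1a-3p cross 0, from -1.35 to 2.39 and from -0.15 to 1.73, as do the short ones of the let-7 members, miR-21a-5p and miR-486b-5p, while those of the other miRNAs shown stay on one side.

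Leaving out each mouse in turn, 5 of the 21 miRNAs were at an unadjusted p under 0.05 every time, namely miR-27b-3p, miR-215-5p, miR-29a-3p, miR-29c-3p and miR-744-5p. With S72h mouse 6 left out, 10 of the 21 stayed. Without S72h mice 1 and 4 together, an alternative chosen after seeing the data, 0 miRNAs were called and 15 had an unadjusted p under 0.05, 10 of them among the 21.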

How the data were processed

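Small RNA libraries of serum EVs from 24 mice (6 each in the Control, S6h, S24h and S72h groups) were sequenced, with 1 library per mouse. According to the study's methods, the authors trimmed adapters, aligned reads to GRCm38 with Bowtie, selected those as long as mature miRNAs and assigned them to miRBase entries with featureCounts. The deposited values are whole-number read counts per mature miRNA with no normalization. Collapsing of PCR copies by the random adapter bases, and the treatment of reads that match several hairpins, are not given in the sources used here. The printed 95% intervals are those of the model and include the spread between mice. A count of 0 allows up to 3 counts, a limit that covers counting error only, or 16.5 to 48.6 TMM-scaled CPM in these 12 libraries.

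Counts were analysed in R 4.3.3 with edgeR 4.0.16. One quasi-likelihood model with TMM scaling was fitted to all 24 libraries, on the 238 miRNAs with at least 10 CPM in 6 of the 12 S24h and S72h libraries, and S72h was contrasted with S24h with Benjamini-Hochberg adjustment over the 238. The SE is the absolute log2FC over the square root of F. The thresholds for a call are those of the study, which used DESeq2. Alternatives were DESeq2 1.42.0, limma-voom (limma 3.58.1), other scalings and filters, a replicate block, the fold change rule and leaving out each mouse. Library-wide values and arm ratios (0.5 counts added) were put to exact two-sided permutation tests over 924 assignments in Python 3.11.15. Named miRNAs are the 10 with the smallest p in each direction, the 10 most abundant and, in each list, the member with the smallest p and the most abundant one, and others are named where a count or a seed group called for it. The scripts were tested on simulated data. The checks of the edgeR fit used simulated counts with a smaller spread than the common one of these data. They do not show which changes could be found at the spread seen here. The members and the lists were chosen with earlier results of these data known. Gene positions are from GENCODE and RefSeq on GRCm38.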

Additional observations from a re-analysis of the deposited data

Results flagged for a closer look

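In 12 of 108 groups of 6 mice, the highest or lowest mouse stood apart from the rest by a gap that Dixon's criterion at 95% marks, where chance marks about 1 in 20 groups, or 5.4. The figure given is the gap to the next mouse as a share of the range of the group on the log2 scale. S72h mouse 4 was the highest for miR-122-5p (0.802) and miR-101a-3p (0.627). S72h mouse 6 was the highest for miR-93-5p (0.641) and for the ratio of miR-451a to miR-23a-3p (0.716), and the lowest for let-7d-3p (0.760). S72h mouse 1 was the highest for miR-744-5p (0.640). S24h mouse 2 was the lowest for miR-194-5p (0.772), miR-3074-5p (0.812) and miR-664-5p (0.652). S24h mouse 1 was the highest for miR-16-5p (0.748). For miR-434-3p, of the Dlk1-Dio3 cluster, S24h mouse 5 was the lowest of its group (0.669) and S72h mouse 2 the lowest of its group (0.711). The part of these mice in the comparison of the groups was measured by leaving each of them out.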

How the results depend on the processing

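At an adjusted p under 0.05, 0 miRNAs were called with DESeq2, limma-voom, RLE factors, column totals, TMM without red blood cell miRNAs, a 100 CPM minimum, the S24h and S72h libraries alone, robust estimation, glmTreat or no fold change rule. With no CPM filter 9 of 538 were called, all higher (miR-194-5p, miR-215-5p, miR-215-3p, miR-541-5p, miR-133a-3p, miR-1a-3p, miR-122-5p, miR-122-3p and miR-101a-3p), and 143 had an unadjusted p under 0.05. With 10 CPM in 12 of all 24 libraries 1 was called (miR-541-5p), and 4 with DESeq2 on the same miRNAs, an alternative chosen after seeing the data. With 1 mouse left out, calls ranged from 0 to 2 (2 without S24h mouse 2, 1 without S24h mouse 6, miR-224-5p, which then missed the level rule, and 1 without S72h mouse 5) and unadjusted ones from 14 to 27. The replicate block gave 0 calls and 15 unadjusted ones; same-numbered mice correlated at -0.14 to 0.16, so numbers mark no pairs. Signs turned below 0 with DESeq2 for let-7c-5p (-0.065), let-7b-5p (-0.046), miR-222-3p (-0.056), miR-128-3p (-0.0019) and miR-26a-5p (-0.041), and with RLE factors likewise (-0.065, -0.046, -0.056, -0.0018 and -0.041). With limma-voom they turned for miR-21a-5p (-0.033), miR-122-5p (-0.20) and miR-26a-5p (-0.086), and with column totals for miR-21a-5p (-0.046), let-7c-5p (-0.19), let-7b-5p (-0.16), miR-222-3p (-0.12), miR-128-3p (-0.022), miR-16-5p (-0.0042) and miR-26a-5p (-0.16). Of 546 named values under 11 such settings, 521 kept their sign without a call. Ranges with 1 mouse left out that crossed 0 were those of let-7a-5p (-0.29 to 0.12), let-7f-5p (-0.25 to 0.084), let-7c-5p (-0.081 to 0.16), let-7b-5p (-0.094 to 0.19), miR-128-3p (-0.024 to 0.26), miR-434-3p (-0.97 to 0.056), miR-26a-5p (-0.10 to 0.24), miR-221-3p (-0.22 to 0.021), miR-222-3p (-0.067 to 0.19), miR-30d-5p (-0.22 to 0.0086), miR-486b-5p (-0.0029 to 0.53), miR-21a-5p (-0.038 to 0.32), miR-1a-3p (-0.15 to 1.73) and miR-122-5p (-1.35 to 2.39). The share of the 10 most abundant miRNAs differed by -0.52 to 5.24 percentage points, below 0 without S72h mouse 4. The log2 ratio of miR-451a to miR-23a-3p differed by 0.30 to 0.73 and passed without S24h mouse 1 (exact permutation test, p = 0.0173). The number of miRNAs detected differed by 26.3 to 41.7, and by 9.05 with at least 3 counts. The cause of these moves was not tested. Under 100 CPM the median SE was 1.28 on the log2 scale, and the part of depth in it was not tested.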

Other observations

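Several miRNAs that missed the level rule were seen in one group alone. miR-541-5p, of the Dlk1-Dio3 cluster, had 0 counts in all 6 S24h mice and up to 67 counts in 5 of 6 S72h mice (median 158 CPM over the 6). The mean of the 6 S72h mice, not the median, was 5.26-fold above 3 counts per S24h library. This bound covers counting error only and leaves out the spread between mice. Its medians were 302 CPM in Control mice and 245 CPM in S6h mice. miR-215-3p, the other arm of the Mir215 hairpin, had 0 counts in the S24h mice and up to 17 in 5 of 6 S72h mice. Besides these 2, let-7i-3p, miR-411-5p and miR-1955-5p had 0 counts in the S24h group and a count in 4 of 6 S72h mice, with at most 10 counts, and 0 miRNAs had the opposite pattern. miR-511-5p had 0 to 16 counts in the S24h mice and at most 1 count in any S72h mouse, while Control mice had 3 to 26 and S6h mice 14 to 50 counts. These miRNAs were chosen after their values were seen. Of the 538 miRNAs counted in the 12 libraries, 352 occurred in both groups and 124 in all 12 mice.

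The libraries held few miRNAs with a single read. Of the 218 to 351 miRNAs with a count in a library, 2 to 18 had exactly 1 count, or 0.787% to 6.43%, so that most miRNAs that were seen had more than 1 count. Sequencing to greater depth was not analysed here.

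By the median distance, mice of the S24h group lay as far from each other as from S72h mice, which was not tested. The root mean square difference of log2 CPM over the 238 miRNAs had a median of 2.51 between S24h mice, 2.21 between S72h mice and 2.4 between mice of the 2 groups.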
